A study of Mus musculus with 18 samples.

Results

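Growth hormone (GH) acts on the liver through a short chain of gene products, and 10 of these genes were followed here in mouse liver RNA: the receptor gene Ghr, the transcription factor genes Stat5a and Stat5b, the feedback inhibitor genes Socs2 and Cish, the hormone gene Igf1, its circulating partner Igfals, and the binding protein genes Igfbp1, Igfbp2 and Igfbp3. They were chosen by gene symbol from a count table of 35441 genes, and all 10 belonged to the 14533 genes tested, those whose reads added up to over 100 across the mice. The study compared livers of 18 male mice in 6 groups of 3. WT mice, Lipa-/- mice (KO) and Lipa-/- mice given rAAV8.hAAT.LIPA (KOT) were each taken at 12 and at 34 weeks post-injection, which the sample labels give as 3 and 8 months. All 34-week livers share a study code that no 12-week liver carries. A change with time thus cannot be told apart from a change with study code in any group. The deletion was bred onto a background that the study's methods write as C57/BL6N. KO and KOT mice share a germline deletion of exon 4 of Lipa, the gene of lysosomal acid lipase, made with a Cre recombinase driven by the CMV promoter, so that it is not limited to hepatocytes. KOT mice received in the tail vein, at an age of 10 to 12 weeks, a vector that carries human LIPA under the hAAT promoter, which works in hepatocytes. The labels give no treatment for WT and KO mice. Most untreated KO mice of the study had to be killed before 34 weeks, and the labels do not tell which of the 3 KO livers labelled 8 months came from such mice.

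GH from the pituitary binds GHR on hepatocytes, and the receptor-bound kinase JAK2 then phosphorylates STAT5A and STAT5B, which enter the nucleus and switch on target genes. Targets include Igf1, Igfals, Socs2 and Cish, and the products of Socs2 and Cish in turn dampen the receptor. IGF1 travels in blood bound to IGFBP3 and the acid-labile subunit encoded by Igfals, while IGFBP1 and IGFBP2 form smaller complexes and IGFBP1 is known for its repression by insulin. In rodents the pulses of GH in males and its steadier level in females also set the sex bias of many liver genes through STAT5B.

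STAT proteins bind the palindrome TTCNNNGAA, which reads the same on both strands, and the matches near the starts of Cish and Igfals are shown because these are the STAT5 targets among the 10 genes for which a promoter window held the letters. RefSeq windows of 250 bases before to 50 bases after each start were searched, from a table of build GRCm38.p6, and the matches were placed on GRCm39 by their sequence. The table held 9 of the 10 genes, all but Socs2, and 2 of the 9 held the motif, against 2582 of all 27025 genes, or 9.55%. The sequences run 5′ to 3′ on the plus strand, with the motif in capitals.
Cish, chr9:107173853-107173882: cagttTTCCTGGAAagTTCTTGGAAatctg
Igfals, chr17:25096572-25096600: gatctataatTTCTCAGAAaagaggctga
Igfals, chr17:25097137-25097165: ctgccaggtgTTCCTAGAAgaggccctgg
The Cish run holds 2 matches side by side, the first of which begins at the RefSeq start itself. The Igfals matches begin 236 and 58 bases before the RefSeq start they belong to, which are different starts of the gene. A match of letters is a description and does not show binding.

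In GRCm39, Ghr lies on chromosome 15 (3347235 to 3613024, minus strand), Igf1 on chromosome 10 (87693642 to 87772904, plus strand) and Socs2 on chromosome 10 (95219523 to 95253929, minus strand). Stat5b (100671556 to 100741589, minus strand) and Stat5a (100750177 to 100776065, plus strand) are neighbours on chromosome 11, as are Igfbp1 (7147651 to 7152546, plus strand) and Igfbp3 (7156086 to 7164179, minus strand). Cish lies on chromosome 9 (107173225 to 107179983, plus strand), Igfals on chromosome 17 (25084971 to 25100984, plus strand) and Igfbp2 on chromosome 1 (72863606 to 72891634, plus strand). Of the 31-base stretches of the main Stat5a transcript, 21.3% also occur in that of Stat5b and 16.5% of those of Stat5b occur in Stat5a, so the division of reads between these genes is uncertain. The estimated counts summed to between 17527848 and 25833134 reads per liver. Levels are given as TMM-scaled CPM, in the order of mouse number within each group, and levels of different genes are compared only as TPM, which takes transcript length into account. TMM factors ran from 0.587 to 1.69. The KOT livers at 12 weeks lay at 0.587 to 0.759 and the KO livers at 34 weeks at 1.37 to 1.69, so these libraries stood apart in composition. As a check of the labels, murine Lipa was 202 to 323 CPM in the WT livers and 16.7 to 37.0 CPM in the 12 livers that carry the deletion. The human transgene was 523 to 2746 CPM in KOT livers, 0 in KO livers, and at most 0.906 CPM in WT livers.

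In WT livers at 12 weeks, Igf1 was the most abundant of the 10 transcripts per length at 482 ± 42.5 TPM (mean ± SD, n = 3), followed by Igfbp2 at 371 ± 64.0 TPM and Ghr at 262 ± 15.8 TPM. Stat5a was the lowest at 2.35 ± 0.723 TPM, below Igfbp3 at 5.72 ± 2.11 TPM and Stat5b at 8.95 ± 3.40 TPM. The order changed with genotype mainly through Igfbp1, which ranked 4 of 10 in WT at 206 ± 202 TPM and 1 of 10 in KO livers at 34 weeks, at 801 ± 498 TPM. Some of the genes varied far more between mice of 1 group than others. In WT livers at 12 weeks the highest Ghr level was 1.04 times the lowest, a smaller ratio than for all but 1.30% of the 12599 genes that averaged 1 CPM or more, while Igfbp1 spanned 14.6-fold, more than 98.8% of them. Cish spanned 17.2-fold in WT livers at 34 weeks, more than 99.0% of genes.

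**Figure D1:**
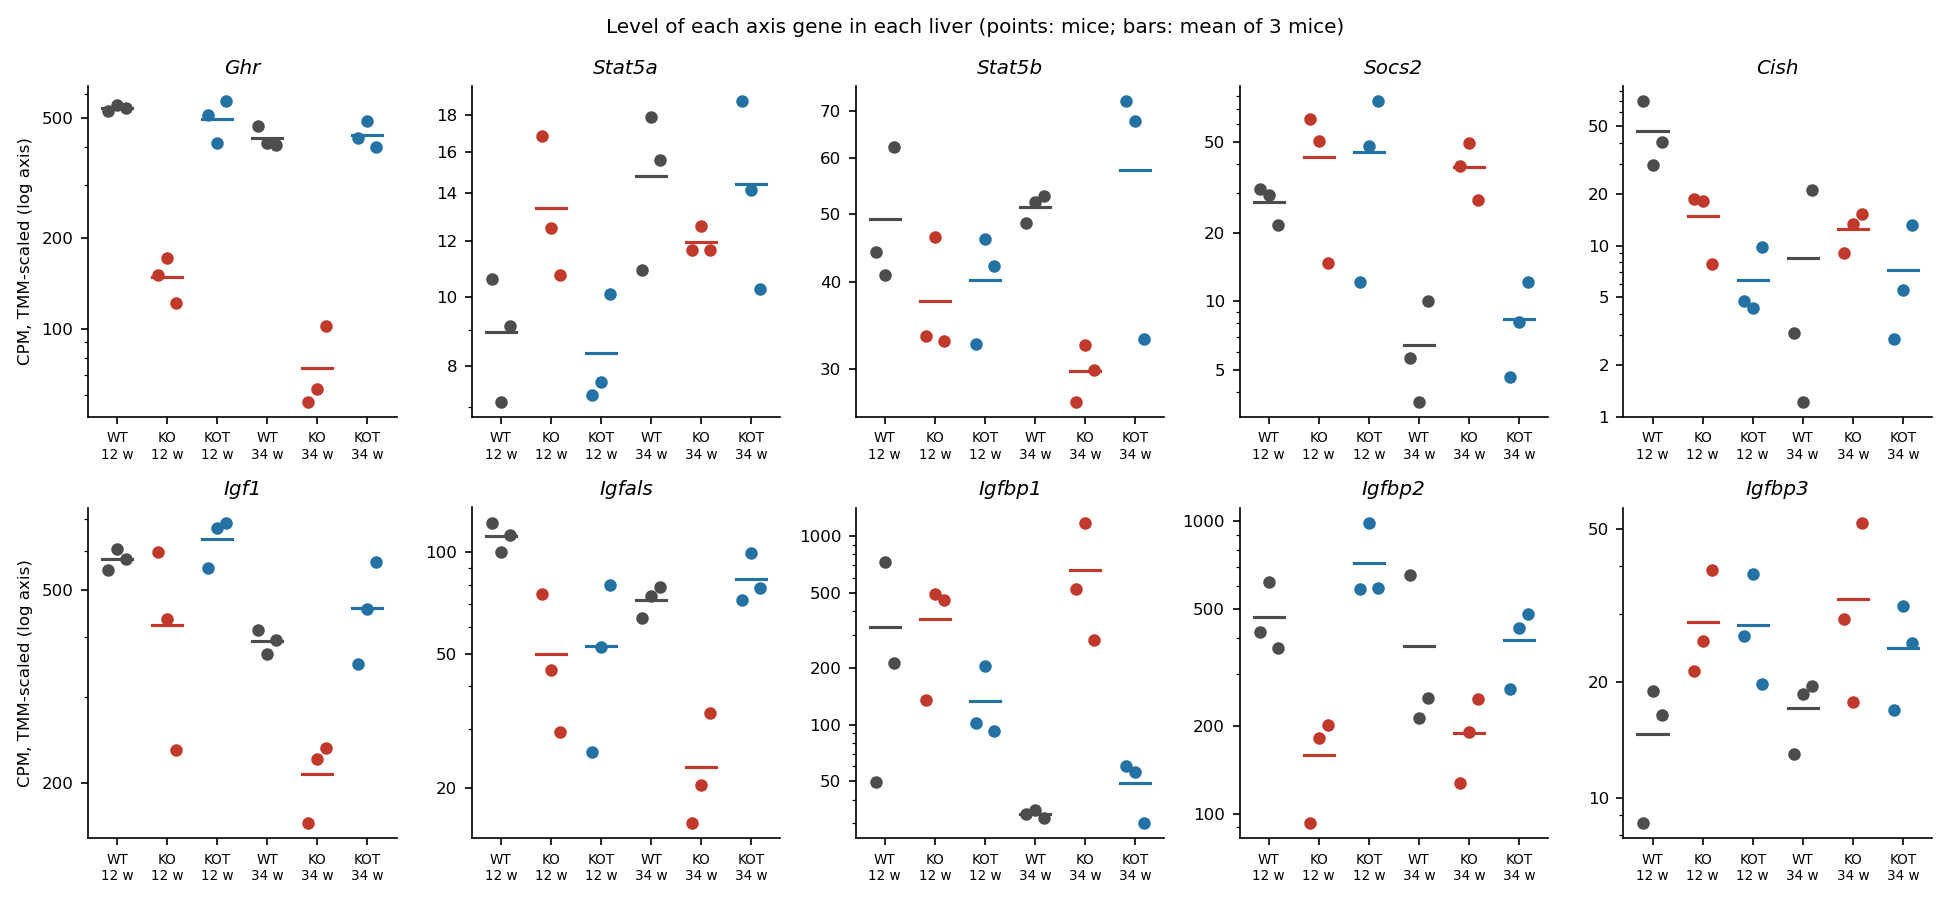
TMM-scaled CPM (log axis) of each of the 10 genes in each of the 18 livers, with points for mice and bars for the mean of 3 mice; KO is Lipa-/- and KOT is rAAV8.hAAT.LIPA-treated Lipa-/-. The 6 KO livers lie lowest for Ghr, between 57.1 and 172 CPM, while Igfbp1 and Cish spread over more than 10-fold within WT groups.

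A gene was called where edgeR's quasi-likelihood test gave a Benjamini-Hochberg adjusted p under 0.05 and an absolute log2 fold change over 1. Between KO and WT livers at 12 weeks, 3 of the 10 genes were called, all lower, against a background of 29.3% of all genes called, 20.2% higher and 9.06% lower. At 34 weeks 4 were called, with 2 higher and 2 lower, against 36.3% of all genes, 20.5% higher and 15.7% lower. The median log2 fold change of the 10 genes was -0.42 at 12 weeks and -0.54 at 34 weeks, beside 0.02 and -0.03 over all genes. Ghr and Igfals were called lower at both times. The shares called in either direction lay near the background, so the counts by themselves do not set the axis apart from other genes.

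In KOT against KO livers, 2 of the 10 genes were called at 12 weeks, both higher in KOT, where 41.5% of all genes were called. At 34 weeks 5 were called, 3 higher and 2 lower, where 31.5% of all genes were called. In KOT against WT livers, 2 genes were called at 12 weeks, both lower in KOT, against 25.5% of all genes. At 34 weeks edgeR called 0 of the 10, as did DESeq2 and limma on TPM, where edgeR called 0.22% of all genes. In the edgeR fit 0 of the 10 had an unadjusted p under 0.05, against 837 of the 14533 genes tested. The KO and KOT comparisons with WT share their WT livers, and those with WT and with each other share the KO or KOT livers.

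**Figure D2:**
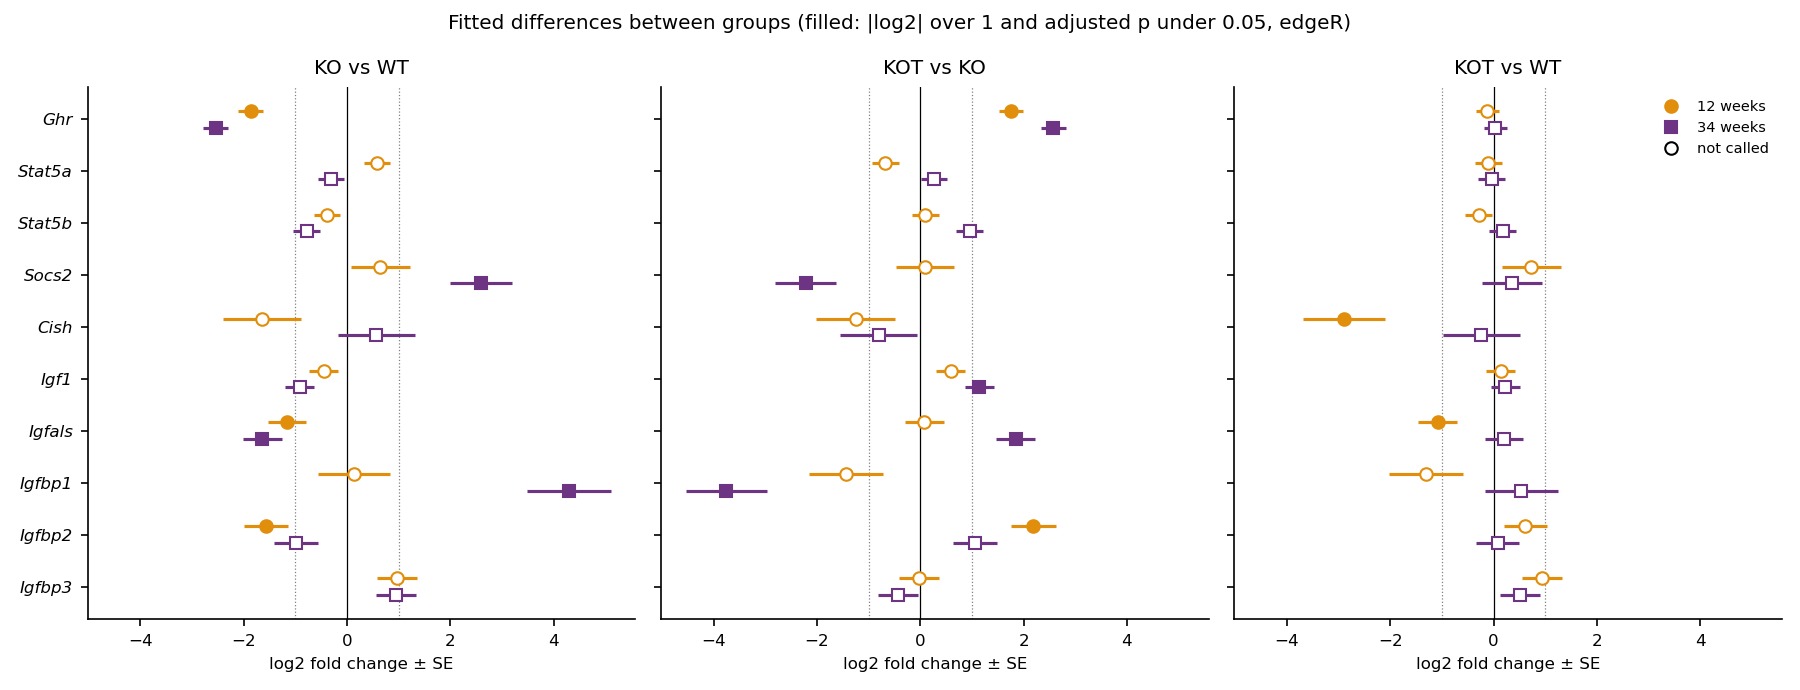
log2 fold change of each of the 10 genes in each within-time comparison, with bars of ± SE from the edgeR fit on 18 livers. Filled points passed the call. The 95% interval of Ghr, which is wider than the bar drawn, lies at -2.33 to -1.41 at 12 weeks and at -3.01 to -2.07 at 34 weeks in KO against WT. In KOT against WT the 95% interval of Ghr spans 0 at both times.

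Ghr encodes the GH receptor. It was 529, 552 and 539 CPM in WT, 150, 172 and 121 CPM in KO and 510, 414 and 569 CPM in KOT livers at 12 weeks. At 34 weeks it was 471, 412 and 406 CPM in WT, 57.1, 62.8 and 102 CPM in KO and 429, 489 and 401 CPM in KOT livers. The KO livers were below every WT and KOT liver at both times, and all KO livers at 34 weeks were below all those at 12 weeks, while the 4 groups of WT and KOT livers overlapped with their neighbours in order. In KO against WT livers Ghr fell by 1.87 on the log2 scale at 12 weeks (SE 0.235, adjusted p = 1.09e-05), or 3.65-fold, and by 2.54 at 34 weeks (SE 0.241, adjusted p = 5.13e-07), or 5.81-fold. In KOT against KO livers it rose by 1.75 at 12 weeks (SE 0.234, adjusted p = 2.39e-05) and by 2.57 at 34 weeks (SE 0.241, adjusted p = 9.38e-07). Against WT, the log2 difference in KOT livers was -0.12 at 12 weeks (95% interval -0.56 to 0.33, adjusted p = 0.705) and 0.03 at 34 weeks (95% interval -0.41 to 0.48, adjusted p = 0.995).

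The position of the KOT livers at 12 weeks depended on the scale of the values. As TPM, Ghr was 262 ± 15.8 in WT, 104 ± 12.1 in KO and 166 ± 25.9 in KOT livers at 12 weeks (n = 3 each). With library totals in place of TMM factors, the log2 difference of KOT from WT was -0.54 (adjusted p = 0.0385) and that of KOT from KO was 0.86 (adjusted p = 0.00122). On TPM (limma) the same differences were -0.67 (adjusted p = 0.0212) and 0.66 (adjusted p = 0.00856). Ghr thus lay above KO on every scale at 12 weeks, while its distance from WT differed between scales. With library totals the median of all genes itself shifted by -1.05 in KOT against KO and by -0.33 in KOT against WT at this time. Between 12 and 34 weeks Ghr in KO livers differed by -0.999 (SE 0.23, adjusted p = 0.0557), which was not called by edgeR. Without KO mouse 6 of the 34-week group this difference was -1.30 (adjusted p = 0.00833), and without KO mouse 9 of the 12-week group it was -1.12 (adjusted p = 0.0485).

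In bulk liver RNA, fewer cells of a type and less RNA per cell cannot be told apart. Of all genes, 9.06% were called lower in KO than in WT livers at 12 weeks and 15.7% at 34 weeks. Of 14 hepatocyte markers tested, 5 were called lower at 12 weeks and 8 at 34 weeks. Their summed level was 90100 to 113000 CPM in WT and 61100 to 79400 CPM in KO livers at 12 weeks, and 83000 to 106000 CPM in WT and 36200 to 69000 CPM in KO livers at 34 weeks. In KOT livers it was 79200 to 142000 CPM at 12 weeks and 77200 to 105000 CPM at 34 weeks. As TPM the sums overlapped between WT and KO livers, at 69600 to 88400 in WT and 71000 to 82800 in KO livers at 12 weeks and at 76500 to 90200 and 47500 to 80300 at 34 weeks. The summed hepatocyte markers were thus lower in KO livers as CPM, by a smaller ratio than Ghr, but at 12 weeks not as TPM, and their part in the Ghr difference was not tested.

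Stat5a and Stat5b encode the transcription factors that carry the GH signal to the nucleus, and STAT5B is the main form in liver. Stat5b was 44.1, 40.9 and 62.3 CPM in WT, 33.4, 46.4 and 32.9 CPM in KO and 32.5, 46.0 and 42.2 CPM in KOT livers at 12 weeks, where all 3 groups overlapped. At 34 weeks it was 48.5, 51.9 and 53.0 CPM in WT, 27.0, 32.5 and 30 CPM in KO and 72.4, 67.8 and 33.2 CPM in KOT livers. As CPM, KO livers were the lowest at 34 weeks without overlap, although KOT mouse 12 was close to them. The log2 difference of KO from WT at 34 weeks was -0.78 (SE 0.26, adjusted p = 0.0204) and that of KOT from KO was 0.96 (SE 0.26, adjusted p = 0.00723), both past the p but under the fold needed for a call. Without KOT mouse 12 the difference of KOT from KO was 1.21 (adjusted p = 0.000435), without KO mouse 5 it was 1.02 (adjusted p = 0.0174), and with length offsets in edgeR it was 1.03 (adjusted p = 0.00624). As TPM, Stat5b was 10.9 ± 2.94 in WT and 9.77 ± 0.820 in KO livers at 34 weeks (n = 3 each), a difference smaller than the SD between WT livers. In KOT livers of that time it was 13.7 ± 5.8 TPM (n = 3). WT mouse 1, at 7.52 TPM, and KOT mouse 12, at 7.63 TPM, lay below every KO liver, so on this scale the groups overlapped.

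Stat5a was 10.6, 7.13 and 9.11 CPM in WT, 16.8, 12.5 and 10.7 CPM in KO and 7.29, 7.61 and 10.1 CPM in KOT livers at 12 weeks. KO livers were the highest here, the lowest of them only just above the highest WT liver. The log2 difference of KO from WT was 0.58 (SE 0.257, adjusted p = 0.085) and that of KOT from KO was -0.68 (SE 0.26, adjusted p = 0.0358), and neither was called. With library totals the difference of KO from WT was 1.04 (adjusted p = 0.012) and that of KOT from KO was -1.56 (adjusted p = 0.000485). At 34 weeks Stat5a was 10.9, 17.9 and 15.6 CPM in WT, 11.6, 12.6 and 11.7 CPM in KO and 18.9, 14.1 and 10.3 CPM in KOT livers, and all groups overlapped. As a ratio of TPM, Stat5b over Stat5a was 2.68 to 4.80 in WT and 1.36 to 2.68 in KO livers at 12 weeks, and 2.09 to 3.10 in WT and 1.60 to 1.79 in KO livers at 34 weeks. The KO livers lay at or below the lowest WT liver at both times, subject to the shared sequence of the pair.

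Socs2 encodes a STAT5 target that ends GH signalling by acting on the receptor. It was 31.2, 29.2 and 21.7 CPM in WT, 62.8, 50.8 and 14.8 CPM in KO and 12.1, 48.0 and 75.7 CPM in KOT livers at 12 weeks. Both KO and KOT livers lay above as well as below the WT range at this time, and the log2 difference of KO from WT was 0.65 (SE 0.565, adjusted p = 0.392). At 34 weeks Socs2 was 5.66, 3.63 and 10.1 CPM in WT, 39.4, 49.3 and 28.0 CPM in KO and 4.67, 8.14 and 12.2 CPM in KOT livers. All KO livers lay above all WT and KOT livers. Socs2 rose by 2.59 in KO against WT at 34 weeks (SE 0.602, adjusted p = 0.00202), or 6.01-fold, and fell by 2.22 in KOT against KO (SE 0.592, adjusted p = 0.00626), or 4.67-fold. Both calls kept their direction and passed without each of the mice in turn and on every scale tried. The KO mean was 42.8 ± 25.0 CPM at 12 weeks and 38.9 ± 10.7 CPM at 34 weeks, while the WT mean was 27.4 ± 5.02 CPM at 12 weeks and 6.46 ± 3.30 CPM at 34 weeks (n = 3 each), so the gap at 34 weeks lay beside a lower WT level. The change with time differed between KO and WT by 1.94 (SE 0.809, adjusted p = 0.436), which was not called.

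Cish encodes a related inhibitor and is another direct STAT5 target. It was 69.9, 29.6 and 40.5 CPM in WT, 18.7, 18.3 and 7.76 CPM in KO and 4.76, 4.29 and 9.81 CPM in KOT livers at 12 weeks. As CPM, though not as TPM, WT livers at 12 weeks were above each of the other 15 livers of the study. Cish was 7.43-fold lower in KOT than in WT livers (log2 fold change -2.89, SE 0.796, adjusted p = 0.0126), a call that was lost without KOT mouse 10 (-2.82, adjusted p = 0.0559). Of KO from WT livers it differed by -1.65 (SE 0.747, adjusted p = 0.0921), which passed in a fit of those groups alone (-1.62, adjusted p = 0.0182). At 34 weeks Cish was 3.07, 1.22 and 21.0 CPM in WT, 8.99, 13.4 and 15.3 CPM in KO and 2.85, 5.52 and 13.2 CPM in KOT livers. WT mouse 3 alone lay above the KO livers, and the difference of KO from WT was 0.57 (SE 0.741, adjusted p = 0.557) with it and 2.58 (adjusted p = 0.00564) without it.

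Within groups, Cish and Socs2 tended to be high in the same mice. The mouse with the highest Cish level also had the highest Socs2 level in 5 of 6 groups, and the mouse with the lowest was the same in 3 of 6 groups. The mice concerned included WT mouse 3 at 34 weeks, with 21.0 CPM of Cish and 10.1 CPM of Socs2, and KO mouse 9 at 12 weeks, with 7.76 and 14.8 CPM. The count is a description over mice that share a library for both genes.

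**Figure D3:**
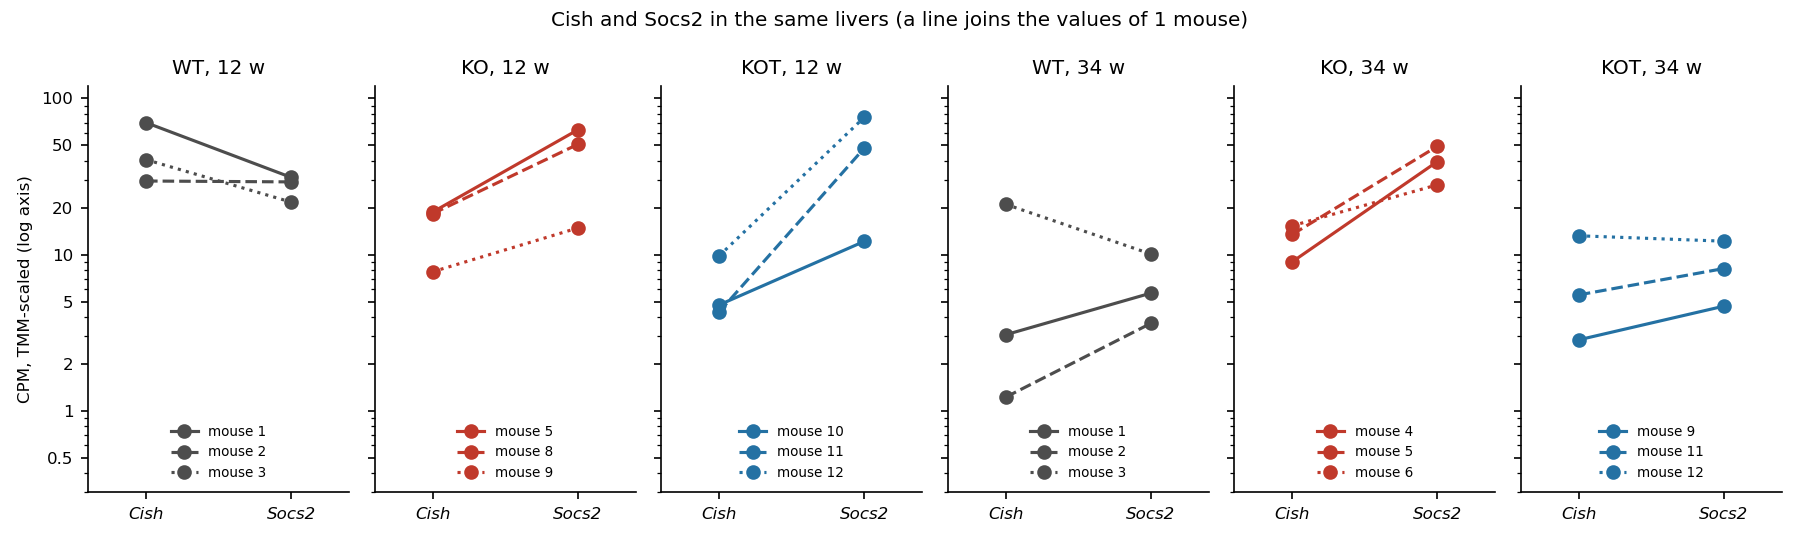
Cish and Socs2 side by side in each of the 18 livers, as TMM-scaled CPM on a log axis, with 1 panel per group. A line joins the values of each mouse, and colours mark WT, KO and KOT. WT livers at 12 weeks are the highest for Cish at 29.6 to 69.9 CPM. KO livers at 34 weeks lie at 28.0 to 49.3 CPM of Socs2 with 8.99 to 15.3 CPM of Cish.

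Igf1 encodes the hormone that liver releases in response to GH. It was 549, 607 and 579 CPM in WT, 597, 435 and 234 CPM in KO and 554, 668 and 687 CPM in KOT livers at 12 weeks. KO mouse 5 lay within the WT range and KO mice 8 and 9 below it, and the log2 difference of KO from WT was -0.45 (SE 0.28, adjusted p = 0.214). KO mouse 5 carries another study code than the other 8 mice of this time point, and without it the difference was -0.79 (adjusted p = 0.0393), under the fold for a call. At 34 weeks Igf1 was 413, 369 and 394 CPM in WT, 165, 224 and 236 CPM in KO and 352, 455 and 570 CPM in KOT livers. As CPM the KO livers lay below all WT and KOT livers. Their difference from WT was -0.91 (SE 0.281, adjusted p = 0.0135), past the p but not the fold except without KO mouse 6 (-1.0, adjusted p = 0.0202). It was smaller with library totals (-0.29, adjusted p = 0.401) and on TPM (-0.29, adjusted p = 0.399), where Igf1 was 329 ± 29.1 TPM in WT and 270 ± 39.6 TPM in KO livers (n = 3 each) and their ranges overlapped. Igf1 rose by 1.14 in KOT against KO (SE 0.283, adjusted p = 0.0038), or 2.20-fold. This call was lost with library totals (0.61, adjusted p = 0.0848), on TPM (0.65, adjusted p = 0.0663), and, through the fold alone, without KOT mouse 12 (0.93, adjusted p = 0.0237) or KO mouse 4 (0.97, adjusted p = 0.0305). In KO livers the difference of 34 from 12 weeks was -1.02 (SE 0.282, adjusted p = 0.0884), and -1.31 (adjusted p = 0.022) without KO mouse 9 of the 12-week group.

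Igfals encodes the acid-labile subunit, which holds IGF1 and IGFBP3 in a long-lived complex in blood. It was 122, 100 and 112 CPM in WT, 75.2, 44.9 and 29.3 CPM in KO and 25.6, 52.5 and 79.7 CPM in KOT livers at 12 weeks. As CPM, every KO and KOT liver lay below every WT liver. As TPM, KO and WT livers overlapped, with KO mouse 5 at 45.2 and WT mouse 2 at 39.8. Igfals fell by 1.16 in KO against WT (SE 0.374, adjusted p = 0.0203), or 2.24-fold, and by 1.08 in KOT against WT (SE 0.374, adjusted p = 0.0331), or 2.12-fold. The call in KO was lost without WT mouse 1 (-1.09, adjusted p = 0.0581), KO mouse 8 (-1.09, adjusted p = 0.0675) or KO mouse 9 (-0.89, adjusted p = 0.0926), with library totals (-0.70, adjusted p = 0.158) and on TPM (-0.79, adjusted p = 0.126). The call in KOT was lost without WT mouse 1 (-1.01, adjusted p = 0.0828), WT mouse 3 (-1.08, adjusted p = 0.0829), KOT mouse 10 (-0.83, adjusted p = 0.107) or KOT mouse 11 (-1.08, adjusted p = 0.0722).

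At 34 weeks Igfals was 63.8, 73.9 and 78.7 CPM in WT, 15.7, 20.4 and 33.3 CPM in KO and 71.9, 99.1 and 78.3 CPM in KOT livers. As CPM, KO livers lay far below the other groups, and WT and KOT livers overlapped. As TPM, KO and WT livers overlapped, with KO mouse 6 at 26.0 and WT mouse 1 at 25.0. It fell by 1.64 in KO against WT (SE 0.38, adjusted p = 0.00194), or 3.12-fold, and rose by 1.84 in KOT against KO (SE 0.382, adjusted p = 0.000972), or 3.59-fold. The change with time differed between KOT and WT by 1.29 (SE 0.525, adjusted p = 0.0868), which passed with library totals (1.75, adjusted p = 0.0363), on TPM (2.11, adjusted p = 0.0371) and without KOT mouse 12 of the 12-week group (1.79, adjusted p = 0.029).

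Igfbp1 encodes a short-lived binding protein that responds within hours to insulin and fasting. It was 49.9, 729 and 211 CPM in WT, 135, 495 and 457 CPM in KO and 102, 205 and 92.9 CPM in KOT livers at 12 weeks, so the WT mice alone covered the whole range of that time. At 34 weeks it was 33.7, 35.0 and 31.8 CPM in WT, 522, 1177 and 279 CPM in KO and 60.6, 55.8 and 29.96 CPM in KOT livers. All KO livers were above all WT and KOT livers at this time. Igfbp1 rose by 4.3 in KO against WT at 34 weeks (SE 0.805, adjusted p = 0.000338), or 19.7-fold, and fell by 3.76 in KOT against KO (SE 0.785, adjusted p = 0.00104), or 13.5-fold. In WT livers the difference of 34 from 12 weeks was -3.30 (SE 0.769, adjusted p = 0.088), and -3.81 (adjusted p = 0.0491) without WT mouse 1 of the 12-week group. The change with time differed between KO and WT by 4.16 (SE 1.03, adjusted p = 0.152), which edgeR did not call and DESeq2 did (4.20, adjusted p = 0.00349). The time of day and feeding state at sampling were not given in the sources used here.

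Igfbp2 encodes the other small binding protein of the set. It was 419.5, 623 and 371 CPM in WT, 93.0, 182 and 201 CPM in KO and 588, 991 and 591 CPM in KOT livers at 12 weeks. KO livers lay below all WT and KOT livers. Igfbp2 fell by 1.57 in KO against WT (SE 0.432, adjusted p = 0.00826), or 2.97-fold, and rose by 2.19 in KOT against KO (SE 0.441, adjusted p = 0.00069), or 4.56-fold. At 34 weeks it was 658, 213 and 249.9 CPM in WT, 128, 190.4 and 248 CPM in KO and 268, 433 and 483 CPM in KOT livers. WT mice 2 and 3 lay among or just above the KO livers and WT mouse 1 far above them. The difference of KO from WT was -0.99 (SE 0.426, adjusted p = 0.0669), and it passed without WT mouse 2 (-1.27, adjusted p = 0.0278) or WT mouse 3 (-1.21, adjusted p = 0.0437). It was smaller with library totals (-0.29, adjusted p = 0.545) and on TPM (-0.12, adjusted p = 0.792), where Igfbp2 was 318 ± 121 TPM in WT and 283 ± 55.6 TPM in KO livers (n = 3 each). That of KOT from KO was 1.06 (SE 0.427, adjusted p = 0.0556), and it passed without KO mouse 6 (1.30, adjusted p = 0.0477) or KOT mouse 9 (1.28, adjusted p = 0.0383), in a fit of those groups alone (1.03, adjusted p = 0.0294) and with no filter on low counts (1.07, adjusted p = 0.0489). It too was smaller with library totals (0.55, adjusted p = 0.261) and on TPM (0.48, adjusted p = 0.286).

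Igfbp3 encodes the main carrier of IGF1 in blood, made in rodent liver largely by cells other than hepatocytes. It was 8.57, 18.9 and 16.4 CPM in WT, 21.3, 25.4 and 39.0 CPM in KO and 26.3, 38.0 and 19.8 CPM in KOT livers at 12 weeks. As CPM, every KO and KOT liver was above every WT liver at this time, while as TPM the KOT livers, at 5.42, 11.3 and 4.75, overlapped with the WT livers, at 3.33, 6.51 and 7.32. The log2 difference from WT was 0.97 in KO (SE 0.39, adjusted p = 0.0594) and 0.94 in KOT livers (SE 0.392, adjusted p = 0.0683), and neither was called. The difference in KOT livers was 0.58 (adjusted p = 0.277) with library totals and 0.25 (adjusted p = 0.71) on TPM. At 34 weeks Igfbp3 was 13, 18.6 and 19.5 CPM in WT, 29.1, 17.7 and 51.8 CPM in KO and 16.9, 31.5 and 25.2 CPM in KOT livers, with all groups overlapping, and the difference of KO from WT was 0.95 (SE 0.389, adjusted p = 0.0552). The KO differences passed without KO mouse 5 of either time, at 1.14 (adjusted p = 0.0474) for 12 weeks and 1.25 (adjusted p = 0.0166) for 34 weeks. They also passed with library totals, at 1.45 (adjusted p = 0.011) and 1.53 (adjusted p = 0.00615), and on TPM, at 1.30 (adjusted p = 0.0216) and 1.39 (adjusted p = 0.0106). In mean CPM, Igfbp3, Socs2 and Igfbp1 were the 3 of the 10 genes that stood higher in KO than in WT livers at both times.

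Between time points few of these genes passed, and time cannot be told apart from the study code there. In WT livers edgeR called 0 of the 10, against 0.323% of all genes. Limma on TPM called 0 (0.241% of all genes) and DESeq2 called 2 (1.27%). In the edgeR fit 4 had an unadjusted p under 0.05, namely Cish, Igfbp1, Socs2 and Stat5a, against 1133 of the 14533 genes tested. The 3 that differed most were Socs2 at -2.08 (SE 0.594, adjusted p = 0.202), Cish at -2.46 (SE 0.772, adjusted p = 0.269) and Igfbp1. As CPM, every WT liver at 34 weeks lay below every WT liver at 12 weeks in each of these 3 genes. The same held for Ghr, Igf1 and Igfals, while in Stat5a every WT liver at 34 weeks lay above. How many of all genes separated in this way was not counted. Without WT mouse 3 of the 34-week group the Cish difference was -4.47 (adjusted p = 0.0338). In KO livers edgeR called 0, against 0.495% of all genes. Limma on TPM called 0 (2.39% of all genes) and DESeq2 called 2 (2.7%). In the edgeR fit 3 had an unadjusted p under 0.05 (Ghr, Igf1 and Igfals), against 2265 of the 14533 genes tested.

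In KOT livers 1 of the 10 was called between times, against 32% of all genes. Socs2 fell by 2.44 (SE 0.598, adjusted p = 0.00434), although KOT mouse 10 at 12 weeks lay within the 34-week range. On TPM this difference was not called (-0.99, adjusted p = 0.153). Stat5a differed by 0.79 (SE 0.26, adjusted p = 0.0214), under the fold, and by 1.02 (adjusted p = 0.00613) without KOT mouse 12 of the 34-week group. For the difference of the time change from that in WT, edgeR called 0 of the 10 in KO livers (0.0619% of all genes). DESeq2 called 1 (1.18%) and limma on TPM 0 (0.427%). With edgeR 3 of the 10 had an unadjusted p under 0.05, against 1378 of the 14533 genes tested. In KOT livers edgeR called 0 where 18.4% of all genes were called. DESeq2 called 1 (23.6%) and limma on TPM 2 (10.9%). With edgeR 2 of the 10 had an unadjusted p under 0.05, against 5516 of the 14533 genes tested. The nearest was Cish in KOT at 2.66 (SE 1.07, adjusted p = 0.0846), which passed without WT mouse 3 of the 34-week group (4.67, adjusted p = 0.0188).

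Ratios of TPM within a liver do not depend on library scaling, and those between several of these genes differed between groups. Igf1 over Ghr was 1.71 to 2.03 in WT, 3.37 to 6.00 in KO and 1.89 to 3.16 in KOT livers at 12 weeks, and 1.38 to 1.5, 3.79 to 5.37 and 1.30 to 2.36 at 34 weeks. KO livers thus held more Igf1 per Ghr transcript than all other livers. Socs2 over Ghr was 0.0406 to 0.0575 in WT and 0.115 to 0.353 in KO and 0.0196 to 0.107 in KOT livers at 12 weeks, and 0.00897 to 0.0289 in WT, 0.277 to 0.837 in KO and 0.0131 to 0.0291 in KOT livers at 34 weeks. Igfals over Igf1 was 0.0777 to 0.127 in WT, 0.0557 to 0.0717 in KO and 0.0231 to 0.0559 in KOT livers at 12 weeks, where KOT livers were the lowest and overlapped with KO livers. At 34 weeks it was 0.0823 to 0.141 in WT, 0.0585 to 0.0826 in KO and 0.0766 to 0.132 in KOT livers, with KO overlapping both. Igfbp1 over Igf1 overlapped at 12 weeks, at 0.075 to 0.835 in WT, 0.188 to 1.44 in KO and 0.0949 to 0.203 in KOT livers. It was 1.01 to 5.09 in KO livers at 34 weeks and 0.0440 to 0.166 in the WT and KOT livers of that time. The ratios share genes with each other and are given as a description.

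**Figure D4:**
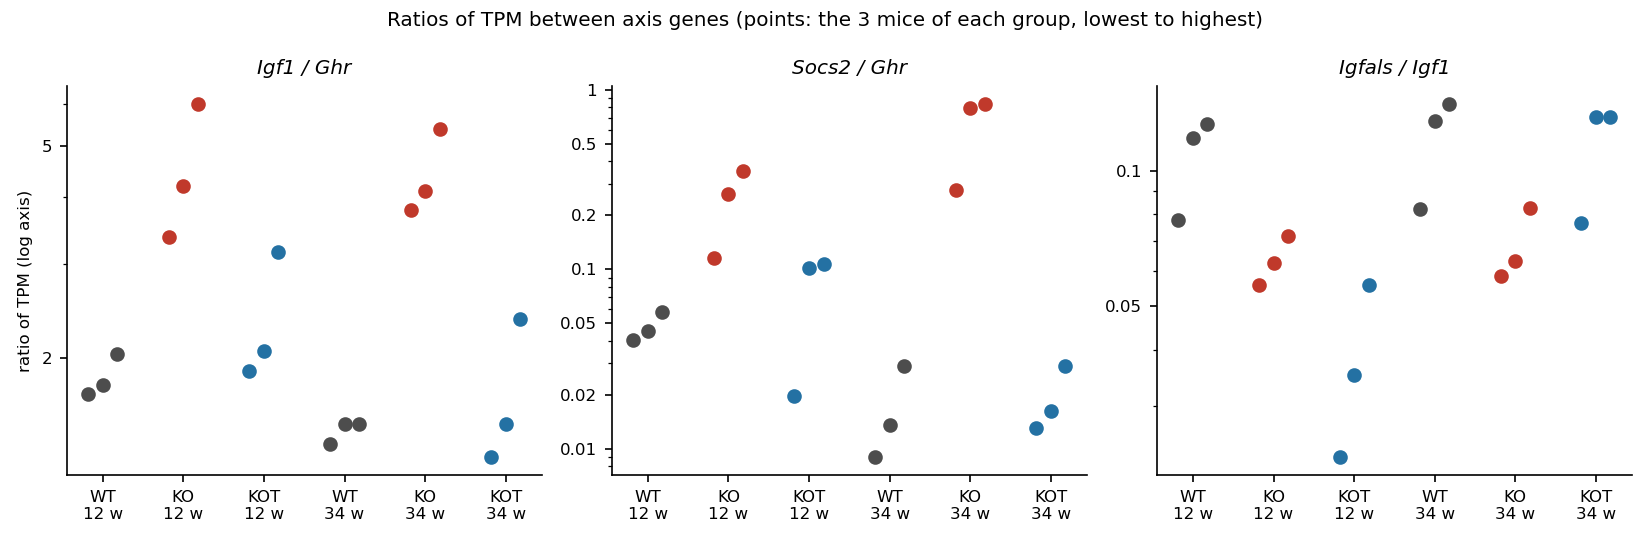
Ratios of TPM between genes of the axis within each liver (log axis), with 3 points per group sorted from lowest to highest; KO is Lipa-/- and KOT is treated Lipa-/-. Igf1 over Ghr is 3.37 or more in all 6 KO livers and 3.16 or less in the other 12, and Igfals over Igf1 at 12 weeks is 0.0231 to 0.0559 in KOT and 0.0777 to 0.127 in WT livers.

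Genes that work beside the receptor were counted from a list of 18 signalling partners. In KO against WT livers 4 were called higher and 2 lower at 12 weeks, and 4 higher and 3 lower at 34 weeks, with medians of -0.05 and 0.30 on the log2 scale, while 29.3% and 36.3% of all genes were called, so the share called lay near the background. The receptor's own kinase gene Jak2 was not called, at 10.2 ± 1.85 CPM in WT and 13.2 ± 2.17 CPM in KO livers at 12 weeks. Irs1, an adaptor of insulin and IGF1 receptors, fell by 2.28 at 12 weeks (adjusted p = 0.00373) and by 1.67 at 34 weeks (adjusted p = 0.0156), the latter call being lost without WT mouse 2 (-1.47, adjusted p = 0.0516), KO mouse 4 (-1.58, adjusted p = 0.0597) or KO mouse 5 (-1.48, adjusted p = 0.0669). Src, a kinase, rose by 2.94 (adjusted p = 3.71e-05) and 3.49 (adjusted p = 4.60e-06), and Sh2b2, an adaptor of JAK2, by 2.11 (adjusted p = 0.000135) and 2.86 (adjusted p = 5.86e-06). Prlr, the prolactin receptor and the nearest relative of Ghr, was 55.2, 66.4 and 76.1 CPM in WT and 83.0, 51.5 and 31.8 CPM in KO livers at 12 weeks, overlapping, and fell by 2.08 at 34 weeks (adjusted p = 0.000616), from 62.2, 115 and 119 CPM to 14.9, 18.3 and 36.9 CPM.

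Of 16 other negative regulators of GH signalling, 5 were called higher and 1 lower at 12 weeks, and 5 higher and 2 lower at 34 weeks, in KO against WT, where 29.3% and 36.3% of all genes were called. With library totals, which moved the median of all genes by 0.48 and 0.60, the counts were 7 higher and 0 lower, and 10 higher and 0 lower. In those fits 32% and 39.9% of all genes were called. Socs3, a feedback inhibitor that also answers to interleukin-6, was 8.63, 2.49 and 3.56 CPM in WT and 45.4, 44.2 and 20.4 CPM in KO livers at 12 weeks, and 15.3, 9.50 and 4.63 CPM in WT and 38.4, 73.1 and 33.0 CPM in KO livers at 34 weeks. It was higher in every KO liver, by 2.91 at 12 weeks (adjusted p = 0.00292) and 2.30 at 34 weeks (adjusted p = 0.00867), and fell by 2.56 in KOT against KO at 34 weeks (adjusted p = 0.00537). Socs1 rose by 2.15 at 12 weeks (adjusted p = 0.013), a call lost without WT mouse 3 (1.69, adjusted p = 0.0547). Sirpa, a receptor found on macrophages, rose by 5.08 (adjusted p = 4.39e-08) and 4.04 (adjusted p = 1.99e-07). Macrophage markers stood higher in the same livers. Of 15, 12 were called higher and 1 lower at 12 weeks, and 10 higher and 2 lower at 34 weeks. Of all genes, 20.2% were called higher and 9.06% lower at 12 weeks, and 20.5% and 15.7% at 34 weeks. The summed level of these markers was 5220 to 10300 CPM in KO against 227 to 736 CPM in WT livers. Their part in these results was not tested.

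Acute phase and IL6-STAT3 genes moved in the same livers as Socs3. In KO against WT, 13 of 20 were called higher at 12 weeks, and 10 higher and 1 lower at 34 weeks. Of all genes, 20.2% and 20.5% were called higher at these times, and 15.7% lower at 34 weeks. The summed level of the 20 genes was 37600 to 60400 CPM in KO against 21100 to 24700 CPM in WT livers at 12 weeks. The ranges were 26700 to 60600 CPM in KO and 15100 to 38000 CPM in WT at 34 weeks, which overlapped, while as TPM they did not, at 44600 to 90600 and 11500 to 23300. Lcn2 was 2.25, 1.63 and 4.03 CPM in WT and 2880, 1800 and 1110 CPM in KO livers at 12 weeks, a rise of 9.51 (adjusted p = 3.53e-05). Their part in the differences of the axis genes was not tested.

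Other genes of the IGF system were counted from a list. Of 12 tested out of 17 listed, 5 were called higher in KO than in WT at 12 weeks and 10 at 34 weeks. Of all genes, 20.2% and 20.5% were called higher. The median log2 fold change was 2.12 and 2.53, beside 0.02 and -0.03 over all genes. It was 1.67 and 2.53 with genes at or under 3 reads in every liver of a group set to the level of 3 reads. In KOT against KO at 34 weeks 9 fell, where 31.5% of all genes were called in either direction. None of the 12 was called lower in KO livers, and 7 at 12 weeks and 2 at 34 weeks were not called. Igf1r, the IGF1 receptor, which hepatocytes express little, was 0.536, 0.670 and 1.62 CPM in WT and 7.13, 2.68 and 3.96 CPM in KO livers at 12 weeks. It rose by 2.28 (adjusted p = 0.00103), and by 2.77 at 34 weeks (adjusted p = 0.000116). Igf2, which adult mouse liver hardly expresses, was 0.354, 0.158 and 0.234 CPM in WT and 2.77, 3.52 and 3.16 CPM in KO livers at 34 weeks, and rose by 3.67 (adjusted p = 0.000297). Igfbp7, a binding protein with low affinity for IGF1, rose by 2.26 (adjusted p = 4.02e-05) and 2.40 (adjusted p = 1.67e-05). Stc2, an inhibitor of the IGFBP-cleaving protease PAPPA, rose from 0.101 ± 0.0451 to 2.12 ± 0.838 CPM at 12 weeks (n = 3 each, edgeR adjusted p = 8.29e-05), where no WT liver had more than 3 reads, and from 0.144 ± 0.126 to 5.18 ± 0.365 CPM at 34 weeks (edgeR adjusted p = 7.52e-06). Insr, the insulin receptor, and Igfbp4 were not called. Insr was 57.3 ± 23.3 CPM in WT and 38.9 ± 19.5 CPM in KO livers at 12 weeks and 63.3 ± 22.9 and 43.2 ± 3.13 CPM at 34 weeks, and Igfbp4 was 1070 ± 85.9 and 1130 ± 271 CPM at 12 weeks and 1130 ± 155 and 812 ± 173 CPM at 34 weeks (n = 3 each).

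Markers of several other liver cell types were counted in the same livers. Of all genes, 20.2% were called higher and 9.06% lower in KO than in WT at 12 weeks, and 20.5% and 15.7% at 34 weeks. Of 13 stellate cell and myofibroblast markers 6 were called higher and 1 lower at 12 weeks and 7 higher and 2 lower at 34 weeks. Of 8 cholangiocyte markers 6 were called higher at 12 weeks and 8 at 34 weeks, with a summed level of 29.4 to 58.7 CPM in WT and 454 to 2240 CPM in KO livers at 12 weeks. Most of this sum came from Spp1, at 20.1, 40 and 30 CPM in WT and 397, 583 and 2210 CPM in KO livers. The summed level is thus mainly that of a single marker. Of 12 lymphocyte and neutrophil markers 9 were called higher at 12 weeks, and 7 higher and 1 lower at 34 weeks. Of 12 sinusoidal endothelial markers 2 were called higher and 6 lower at 12 weeks and 3 higher and 5 lower at 34 weeks. The part of these cells in the levels of Igf1r, Igf2, Igfbp3 and Igfbp7 was not tested.

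Male-biased liver genes, which need pulses of GH and STAT5B, were low in KO livers. In KO against WT, 19 of 20 fell at 12 weeks and 18 of 20 at 34 weeks, with a median log2 fold change of -5.43 and -5.79, the latter also with Cyp4a12a, at or under 3 reads in each KO liver, at its bound, where 9.06% and 15.7% of all genes were called lower. In KOT against KO, where 41.5% and 31.5% of all genes were called in either direction, 19 rose at 12 weeks and 20 at 34 weeks. Their mean log2 CPM was 9.02 to 9.43 in WT, 2.29 to 3.34 in KO and 8.31 to 9.75 in KOT livers at 12 weeks, and 6.52 to 8.03, 1.74 to 2.10 and 8.03 to 8.86 at 34 weeks. Elovl3, a fatty acid elongase, was 882, 1010 and 789 CPM in WT and 0.426, 0.117 and 0.323 CPM in KO livers at 12 weeks. Hsd3b5, a steroid-metabolising enzyme, was 429, 487 and 334 CPM in WT and 0.142, 0 and 0.0808 CPM in KO livers at 12 weeks. At 34 weeks Hsd3b5 varied among WT mice, at 167, 2.05 and 9.50 CPM, and was 188, 283 and 64.2 CPM in KOT livers. In WT livers 3 of the 20 fell between 12 and 34 weeks, against 0.323% of all genes called in either direction. Mup genes make up 5 of the 20, and reads of these near-identical copies cannot be assigned with certainty.

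Female-biased genes did not mirror this at both times. Of 14 tested out of 21 listed, 7 were called higher and 1 lower in KO than in WT at 12 weeks. At 34 weeks, however, 4 were called higher and 7 lower. Of all genes, 20.2% were called higher and 9.06% lower at 12 weeks, and 20.5% and 15.7% at 34 weeks. The mean log2 CPM of the 14 was -1.21 to -0.49 in WT and 0.68 to 1.61 in KO livers at 12 weeks. At 34 weeks it was 0.83 to 2.26 in WT and 0.24 to 1.4 in KO livers. In KOT livers it was -1.88 to -0.74 at 12 weeks and -0.64 to -0.43 at 34 weeks, the latter below every WT liver of that time, and 4 of the 14 were called lower in KOT than in WT at 34 weeks, where 0.22% of all genes were called. The WT livers thus stood higher at 34 weeks than at 12 weeks, and 6 of the 14 rose with time in WT, against 0.323% of all genes called. Cyp2b10, a drug-metabolising enzyme, fell from 1.18, 1.67 and 2.98 CPM in WT to 0.177, 0 and 0 CPM in KO livers at 12 weeks (edgeR adjusted p = 0.000702), and from 3.72, 2.17 and 6.23 CPM to 0 in every KO liver at 34 weeks (edgeR adjusted p = 2.43e-05).

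**Figure D5:**
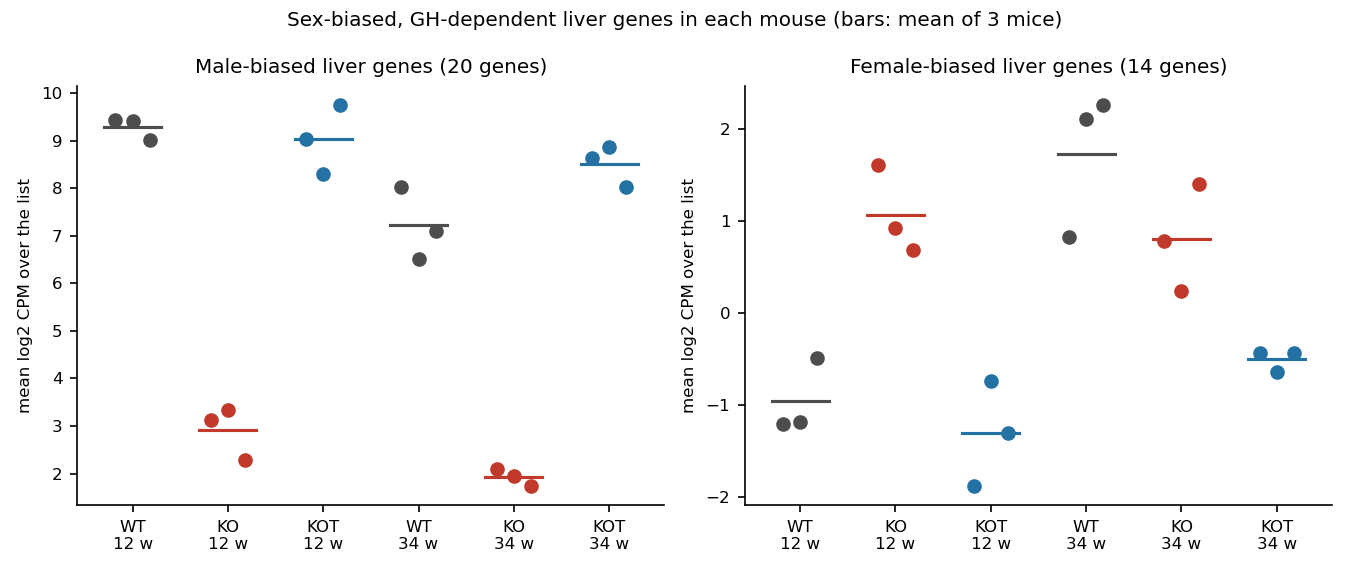
Mean log2 CPM over 20 male-biased and 14 female-biased liver genes in each of the 18 livers, with points for mice and bars for the mean of 3 mice. KO livers lie at 1.74 to 3.34 for the male-biased genes while the other livers lie at 6.52 to 9.75, and WT livers at 34 weeks lie highest on average for the female-biased genes, at 0.83 to 2.26.

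Of 17 transcription factors that GH regulates, 1 was called higher and 4 lower in KO than in WT at 12 weeks, and 1 higher and 5 lower at 34 weeks, shares near the 29.3% and 36.3% of all genes called. With library totals, and the same shift of all genes by 0.48 and 0.60, these counts were 4 higher and 2 lower, and 3 higher and 1 lower. Of all genes, 32% and 39.9% were then called. Cux2, a repressor normally found in female liver, was 0.322, 0.0957 and 0 CPM in WT and 7.52, 0.272 and 0.323 CPM in KO livers at 12 weeks. Its call at 12 weeks rested on KO mouse 5, with an adjusted p of 0.01 with it and 0.396 without it (edgeR). At 34 weeks all 3 KO livers were high, at 3.50, 6.72 and 4.3 CPM against 0.0590, 0.434 and 0.350 CPM in WT, a rise with an edgeR adjusted p = 0.00632. Bcl6, a repressor that opposes STAT5 in male liver, was 43.1, 67.9 and 8.84 CPM in WT and 9.93, 9.39 and 8.05 CPM in KO livers at 34 weeks. WT mouse 3 lay within the KO range, and the fall of 2.13 (adjusted p = 0.0282) was not called without WT mouse 1 (-2.07, adjusted p = 0.0553), WT mouse 2 (-1.5, adjusted p = 0.132), KO mouse 4 (-2.16, adjusted p = 0.0729), KO mouse 5 (-2.14, adjusted p = 0.0719) or KO mouse 6 (-2.04, adjusted p = 0.0803). Onecut1 fell by 4.37 at 12 weeks (adjusted p = 0.000147), from 66.2, 15.5 and 59.5 CPM to 4.68, 1.32 and 0.768 CPM.

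Of 9 lipid genes known to rise when hepatic GH and STAT5 signalling is lost, 3 were called higher and 1 lower in KO at 12 weeks, and 1 higher and 3 lower at 34 weeks, where 29.3% and 36.3% of all genes were called. Lpl, lipoprotein lipase, rose by 5.19 (adjusted p = 1.43e-08) and 5.32 (adjusted p = 1.23e-08), and it is also expressed by macrophages. Cd36, a fatty acid uptake receptor, rose by 1.92 at 12 weeks (adjusted p = 0.00116), and Pparg, a lipogenic nuclear receptor, by 1.44 (adjusted p = 0.0101). Mogat1, which makes diacylglycerol, fell from 0.643, 0.718 and 1.78 CPM in WT to 0.142, 0 and 0 CPM in KO livers at 12 weeks (edgeR adjusted p = 0.00312), and from 3.42, 8.43 and 12.2 CPM to 0.0631, 0.155 and 0.0368 CPM at 34 weeks (edgeR adjusted p = 2.80e-05). In WT livers 4 of the 9 rose between 12 and 34 weeks, against 0.323% of all genes called in either direction. The reference for the 9 genes thus differed between the times.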

How the data were processed

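Liver RNA of 18 mice was sequenced after polyA selection with ERCC spike-in. The authors quantified reads with Salmon on GRCm39 cDNA and tximport, and deposited estimated counts, TPM and mean transcript length per gene (file headers and the study's methods); 19.4% of the count values were not whole. The deposited DESeq2 (1.40.1, R 4.3.0 per the submitters' processing notes) tables of pairwise comparisons hold the authors' own fold changes and were not used. Here expected counts were rounded and the 14533 of 35441 genes with over 100 reads in all were fitted with edgeR 4.0.16 (R 4.3.3, TMM factors, quasi-likelihood, 6 group means, prior count 2), with Benjamini-Hochberg adjustment over all genes in each of 11 comparisons, of which 2 were interactions. Genes called have an absolute log2 fold change over 1 and adjusted p under 0.05. Scripts were tested on simulated data. Estimated counts that differ in transcript use carry length effects that the count fit leaves in.

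Alternatives were DESeq2 1.42.0 and edgeR with length offsets, upper-quartile and total-count scaling, other filters, only the groups compared, limma 3.58.1 on log2(TPM + 1), adjusted p alone or under 0.01, each mouse left out, and a replicate block. Members and gene lists were chosen with earlier results of these data known. Besides the 10 genes, Lipa and the transgene, the named genes are a fixed set of 12 and, from each list, up to 3 called genes per direction with the largest change in KO against WT at 12 weeks and a mean of at least 1 CPM; Insr, Igfbp4 and Jak2 are named although not called. 1 gene that this rule names is not reported here. Counts of 3 mice a group limit what can be detected; depth was 17527848 to 25833134 reads. Each liver is a separate mouse. Proteins and phosphorylation were not measured.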

Additional observations from a re-analysis of the deposited data

How the results depend on the processing

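The report rests on 17 called values of the 10 genes. Over 273 alternative values of these, 0 changed sign, 253 stayed called and 20 were not called, and 11 of the 17 stayed called in each alternative run. Among fold changes of the 10 genes that were not called but are given in this report, 5 alternative values changed sign. Fits not given here were left out of this count. Igf1 in KO against WT at 12 weeks changed sign with library totals (0.0171). Ghr in KOT against WT at 12 weeks did so with DESeq2 (0.00814) and without KOT mouse 11 (0.00074). Its range over the mice left out was -0.297 to 0.00074. Ghr in KOT against WT at 34 weeks did so without KOT mouse 11 (-0.0503) and without WT mouse 3 (-0.00606). The range over the mice left out was -0.0503 to 0.105. The number of the 10 genes called moved with some settings. Brackets give the share of all genes called under the same setting. In KO against WT at 12 weeks it was 5 in place of 3 when only those groups were fitted (28.2%). It was 0 in place of 2 at adjusted p under 0.01 in KOT against WT at 12 weeks (12.4%). In KOT against KO at 12 weeks it was 4 in place of 2 with total counts (52.4%) and with only the groups compared (40.5%). On TPM it was 6 (38%). DESeq2 called 2 in place of 0 over time in WT (1.27%), where no filter gave 1 (0.388%). It called 2 in place of 0 over time in KO (2.7%). Over time in KOT the count was 1 (32%). It was 3 with DESeq2 (33.3%) and on TPM (29.3%), and 4 with total counts (39.1%). With length offsets (31.4%), with only the groups compared (32.9%) and with adjusted p alone (45.2%) it was 2. The KO interaction gave 1 with DESeq2 in place of 0 (1.18%). The KOT interaction gave 1 with DESeq2 (23.6%) and with total counts (19.2%), and 2 on TPM (10.9%), in place of 0. Leaving out each mouse in turn gave 2 to 4 genes in KO against WT at 12 weeks and 4 to 6 at 34 weeks, 0 to 2 in KOT against WT at 12 weeks, 2 in KOT against KO at 12 weeks and 4 to 6 at 34 weeks, 0 to 1 over time in WT, 0 to 2 in KO and 1 to 2 in KOT, and 0 to 1 for the KOT interaction. The cause of these changes was not tested. With mice left out in turn, 26.3 to 29% of all genes were called in KO against WT at 12 weeks and 31.6 to 36.9% at 34 weeks. In KOT against WT at 12 weeks it was 11.3 to 29.1%. In KOT against KO it was 35.8 to 41.9% at 12 weeks and 26.8 to 31.9% at 34 weeks. Over time it was 0.0484 to 0.704% in WT, 0 to 1.83% in KO and 23.1 to 35.9% in KOT. For the KOT interaction it was 0.00692 to 23.9%. Total-count scaling moved the median of all genes by 0.48 and 0.60 in KO against WT at 12 and 34 weeks.

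Mice of 1 number at both times shared only that number: same-numbered WT deviations correlated at 0.076, -0.24 and 0.46, and those of KOT mice 11 and 12 at -0.077 and -0.25. With the replicate block 0 of the 10 genes were called over time in WT, where 0.00826% of all genes were called. In KOT mice 11 and 12 it gave 2 in place of 1, where 14.7% of all genes were called. Within a time point the groups share no numbers, so no paired analysis was possible there.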

Other observations

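The genes whose log2 CPM ran most like Igf1 over the 18 livers were Ropn1l (Pearson's r = 0.944), Asl (0.933), Mtarc2 (0.908), Ndufa6 (0.905) and Pfkfb1 (0.9). Asl encodes argininosuccinate lyase of the urea cycle, and Pfkfb1 the liver form of the enzyme that sets fructose 2,6-bisphosphate. For Socs2 the closest genes were Tbk1 (0.766), Lpar6 (0.766), Wsb1 (0.761), Nol12 (0.76) and Hmces (0.759), a weaker likeness than for Igf1. The values are a description of 18 livers in 6 groups that share library composition, with no test.

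The deposited mean transcript length of the 10 genes was compared by exact permutation over 3 against 3 mice, two-sided, where the smallest p possible is 0.1. Of 90 comparisons of a gene between groups, 15 reached it, and after Benjamini-Hochberg adjustment the smallest value was 0.6. The largest difference was 31.6% for Igf1 between 34 and 12 weeks in KOT livers, where the mean length was 1171 ± 76.7 bases and 890.2 ± 44.8 bases.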
